A study of Mus musculus with 8 samples.

Results

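The material described here is the mRNA that came down from mouse spinal cord in anti-HA precipitations of mice that could make no HA tag, compared between mice with and without a crushed sciatic nerve. The members were chosen by library title: 4 of the 8 libraries of the series carry a title for control mice without Cre. Crushed libraries came from animals 51 and 58, and uncrushed libraries from animals 4 and 6. The comparison was fitted to these 4 libraries only and covers every expressed gene. All mice of the series were on a B6.CgxB6.129 background, Gars+/+, and heterozygous for the Rpl22 allele (Rpl22 +/-), so the crushed and uncrushed groups share these alleles. Chat is entered as +/+, meaning no Cre, for animals 51, 58 and 6, but as +/- for animal 4, against its title. The crushed mice were 9 weeks old and the uncrushed mice 8 weeks. The Cre libraries set beside them came from crushed animals 35 (18 weeks) and 52 (9 weeks) and uncrushed animals 10 and 3 (8 weeks each), with Chat entered as +/- except for animal 3, whose entry of +/+ also goes against its title. Age and crush therefore cannot be told apart, and the same holds for a number that the titles of the uncrushed libraries share. The nerve was crushed on 1 side and the whole cord was taken. The labels say nothing of the time between surgery and collection, the sex of the mice or any sham surgery.

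In the RiboTag method the ribosomal protein Rpl22 gains an HA tag after Cre recombination, and antibody against HA then pulls down tagged ribosomes with the mRNA they carry. Chat-Cre restricts the tag to cholinergic cells, which in the cord include the motor neurons whose axons run in the sciatic nerve. Without Cre no tagged ribosome is made, so these precipitates hold mRNA that is retained by beads, antibody or tube, and they serve as the background of the experiment. Injured motor and sensory neurons are known to switch on genes such as Sprr1a and Atf3, while glia around them become reactive.

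The libraries held 4826979 and 6468110 expected counts (estimated reads per gene) in crushed animals 51 and 58, and 4903056 and 5203850 in uncrushed animals 4 and 6. Levels below are CPM, counts scaled to a common library total, after TMM scaling, which corrects for differences in library composition. Libraries with and without Cre were scaled separately, so levels set side by side between them are not on a common scale. A count of 3 corresponded to between 0.36 and 0.999 CPM. Chat, which encodes the enzyme that makes acetylcholine, was low in all 4 libraries. It stood between 3.26 and 4.56 CPM, against 90.1 to 146.7 CPM in the 4 Cre libraries of the series. Other genes of the motor neuron list, such as neurofilaments, were not all low. Its 25 members summed to 2895.6 and 3931.4 CPM in the crushed and to 8021.9 and 5046 CPM in the uncrushed libraries. Animal 4, with 3.66 CPM, held the Chat level of its title and not of its genotype entry. Rpl22 stood at 15.2 and 21.9 CPM in the crushed and at 25.3 and 23.7 CPM in the uncrushed libraries. Several libraries stood apart in genes picked after their values were seen. Animal 4 had 956.5 CPM of Xist, the RNA of the inactive X chromosome, against at most 4.52 CPM in the others, and 4 Y-linked genes summed to 1.33 CPM there against 64.2 to 102.2 CPM in the others. Skeletal muscle genes summed to 1249 CPM in crushed animal 51 and 1732.1 CPM in uncrushed animal 4, but to 172.9 and 195.5 CPM in animals 58 and 6. In uncrushed animal 6, 11 predicted genes summed to 65423 CPM against 4599 to 9294 CPM in the others. The pair of uncrushed libraries was no more alike than most pairs of libraries from different groups. Their levels differed more than 2-fold in 22.6% of genes, against 10.7% between the crushed libraries and 13.7% to 27.1% between a crushed and an uncrushed one. The part of these features in the results below was not tested beyond leaving out each library in turn.

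The comparison of crushed with uncrushed mice asked whether the unspecific mRNA of the precipitate differs after nerve injury. Of 13394 genes tested, 2 were lower after crush (0.0149% of those tested) and 0 higher at an adjusted p of 0.05 in edgeR's quasi-likelihood test. Both were lower in each crushed library than in either uncrushed one. At an unadjusted p of 0.05, 505 genes were lower (3.77%) and 518 higher (3.87%). Both crushed libraries lay below both uncrushed ones in 18.6% of genes and above them in 20.6%. These shares stand beside each count without overlap given below, and they varied with level. Of 5 equal classes by mean CPM, the highest had 26.4% of genes lower, 14.2% higher and a median log2 difference of -0.1. The lowest class had 11.3% lower, 27.8% higher and a median of 0.11. The part of level in the differences of the gene lists was not tested. The median of the fitted log2 differences was -0.01, their median size was 0.39, and 12.8% were larger than 1. The number of called genes depended on single libraries and on the test. It was 40 without animal 51, 128 without animal 58, 31 without animal 4 and 35 without animal 6, each time with both of the original genes among them. DESeq2 called 9 genes higher and 54 lower. With 2 animals a group the smallest exact permutation p for a single gene is 0.333, so all p-values rest on the model fitted across genes. Scaling by library size alone moved the median of all genes to 0.93 on the log2 scale and called 90 higher and 6 lower, so that 93.8% of calls were higher. Medians of most gene lists given below then lay between 0.43 and 1.26. The exceptions were mitochondrially encoded protein genes at -0.60, mitochondrial rRNAs at -0.68, sensory ganglion genes at -0.18 and skeletal muscle genes at 2.17. Directions are therefore given relative to the median of all genes.

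**Figure D1:**
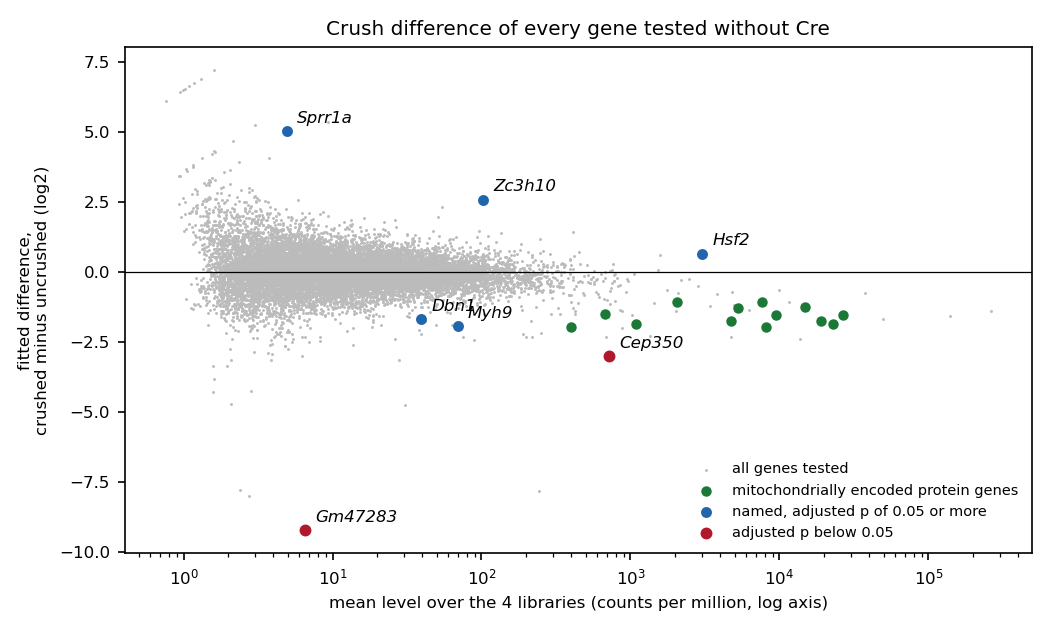
The fitted log2 difference (crushed minus uncrushed, vertical axis) of each of the 13394 genes is plotted against its mean level over the 4 libraries (CPM, log axis). Cep350 and Gm47283 (red) passed an adjusted p of 0.05, the other named genes (blue) did not, and the mitochondrially encoded protein genes (green) all lie below 0; the value of Gm47283, with 0 counts in the crushed libraries, depends on the prior count of the fit.

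Cep350 (ENSMUSG00000033671) encodes a large centrosomal protein that anchors microtubules. Its level was 172.7 and 144.3 CPM in crushed animals 51 and 58, and 1693.8 and 850.2 CPM in uncrushed animals 4 and 6. The groups did not overlap, and the uncrushed libraries differed from each other by more than the crushed ones did. Cep350 fell from 1272 ± 597 to 158.5 ± 20.1 CPM (SD, n = 2 in each group), a change 8.02-fold in size (log2 -3.00 ± 0.40, adjusted p = 0.0439). The difference lay between -3.43 and -2.44 when any single library was left out and remained called each time. The call was lost when libraries were scaled by size alone (-1.95, against the median of 0.93 for all genes, adjusted p = 0.0543) and when the mitochondrially encoded genes were left out (-3.00, adjusted p = 0.0551). No other centrosome gene reached its size of difference. Of 24 tested, Cep350 among them, 8 were lower without overlap and 2 higher, beside 18.6% and 20.6% of all genes. Their median was -0.12, or -0.03 without animal 4 and -0.27 without animal 51. Akap9, a scaffold that recruits kinases and microtubule nucleators, stood at 200.3 and 191.6 CPM after crush against 352.2 and 211.3 CPM. Pcm1, the core protein of centriolar satellites, stood at 163.5 and 140.3 against 253.2 and 139.7 CPM, which overlap. Cep290, a protein of the ciliary transition zone, stood at 47.6 and 48.4 against 130.9 and 58.3 CPM. In all 3 genes uncrushed animal 4 held the highest value.

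Gm47283 (ENSMUSG00000096768), a predicted protein-coding gene of no described role, was the other gene called. It had 0 counts in both crushed libraries, and 43 and 52 counts in uncrushed animals 4 and 6, or 14.3 and 11.8 CPM. Taken against 3 counts over the crushed group, Gm47283 fell and was at least 65.6-fold lower (adjusted p = 0.0329). The call held without each library in turn, and DESeq2 gave it no adjusted p. Other predicted genes showed the same pattern of zeros and were picked after their values were seen. Gm10052, a processed pseudogene, had 0 counts after crush and 5.33 and 5.65 CPM in the uncrushed libraries (at least 28.3-fold lower, adjusted p = 0.132). Gm10340 had 0 counts after crush and stood at 5.00 and 4.52 CPM without (at least 24.2-fold lower, adjusted p = 0.156). Such genes can share reads with near-identical copies, and their counts are uncertain. Gm47283, Gm10052 and Gm10340 passed the filter on low counts through the uncrushed group alone, and their bounds do not cover the spread between animals.

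Zc3h10, an RNA-binding protein with CCCH zinc fingers, had the smallest p of the genes with a symbol that stood higher after crush, but missed the threshold. Its level was 116.0 and 234.3 CPM in crushed animals 51 and 58 against 25.3 and 32.8 CPM in uncrushed animals 4 and 6. The groups did not overlap, and the crushed libraries were further apart than the uncrushed ones. The log2 difference was 2.59 ± 0.39 (adjusted p = 0.0709). It lay between 1.97 and 3.01 without single libraries, and the adjusted p was 1.75e-11 without animal 51, 0.00101 without animal 58, 0.117 without animal 4 and 0.0515 without animal 6. Its family did not follow it. Of 20 genes for CCCH zinc finger and related RNA-binding proteins tested, Zc3h10 among them, 6 were higher and 5 lower without overlap. The shares of all genes were 20.6% and 18.6%, and the median of the 20 was -0.04. Zc3h13, a component of the RNA methylation machinery, stood at 60.9 and 73.9 CPM after crush against 107.9 and 101.2 CPM. The splicing regulator Mbnl2 stood at 93.5 and 90.9 against 62.6 and 79.3 CPM.

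Further genes with higher levels after crush were picked by their small p after their values were seen, and none passed the adjusted threshold. Noc2l, a nucleolar repressor of transcription, stood at 186.0 and 205.2 CPM after crush against 73.3 and 75.0 CPM (log2 1.40, adjusted p = 0.289). Ogt, the enzyme that adds N-acetylglucosamine to nuclear and cytosolic proteins, stood at 754.8 and 455.0 against 214.6 and 233.5 CPM (1.43, adjusted p = 0.409). Chkb, a choline kinase of phospholipid synthesis, stood at 19.9 and 22.1 against 5.33 and 6.10 CPM (1.87, adjusted p = 0.350). In these 3 genes the groups did not overlap, and the crushed libraries lay close together for Noc2l and Chkb but not for Ogt, whose difference was 1.02 without animal 51 and 1.73 without animal 58. Trim56, a ubiquitin ligase of innate immunity, was high chiefly in 1 library, with 34.5 and 147.1 CPM after crush against 21.0 and 15.1 CPM (2.34, or 0.92 without animal 58). Xylb, a xylulose kinase, had 93 counts in the crushed group against 1 in the uncrushed group, a ratio of 44.9 in CPM (adjusted p = 0.289). Its 95% interval of 7.86 to 1790 covers counting error alone, not the spread between animals or the picking by p. Xylb passed the filter on low counts through the crushed group alone. Hsf2, a heat shock transcription factor, stood far above its level in the Cre precipitates in every library but differed little with crush. It was at 2947.6 and 4437.2 CPM after crush and at 1848.1 and 2823.0 CPM without, against 115.7 to 233.5 CPM in the Cre libraries. The log2 difference without Cre was 0.66 ± 0.38 (adjusted p = 0.697). Of 24 heat shock factors and chaperones tested, 5 were higher and 7 lower without overlap, beside 20.6% and 18.6% of all genes. Their median was -0.14, or 0.05 without animal 51 and 0.04 without animal 4.

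**Figure D2:**
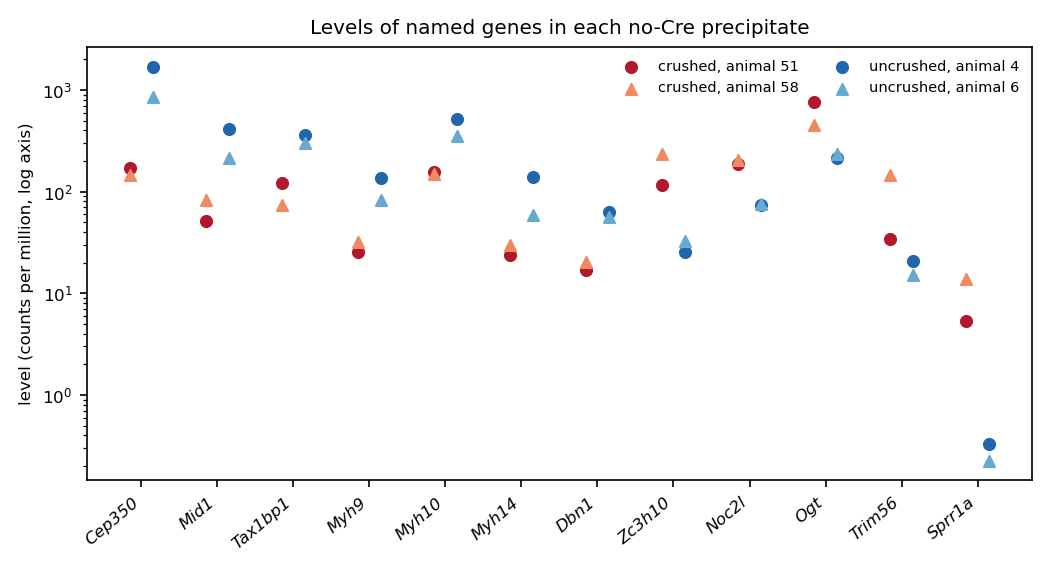
The level (CPM, log axis) of 12 genes is shown in each of the 4 libraries, crushed in red and orange and uncrushed in blue. Cep350, Mid1, Tax1bp1, the 3 myosin heavy chains and Dbn1 lie lower in both crushed libraries, while Zc3h10, Noc2l, Ogt, Trim56 and Sprr1a lie higher; only Cep350 passed the adjusted threshold.

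Genes of non-muscle myosin and the actin cytoskeleton, the proteins that build contractile filaments and the cortex under the membrane, lay lower more often than higher after crush. Of 39 tested, 14 were lower and 3 higher without overlap, beside 18.6% and 20.6% of all genes, and the median was -0.41. It was -0.24, -0.49, -0.27 and -0.58 without animals 51, 58, 4 and 6. None passed the adjusted threshold, 7 had an unadjusted p below 0.05, all lower, and DESeq2 called 6 lower. Myh9 and Dbn1, leading genes of earlier results of these data, are included in each of these counts of lower genes. Scaled by library size alone, the median was 0.54 against 0.93 for all genes. Myh9, a heavy chain of non-muscle myosin II, stood at 25.5 and 31.9 CPM after crush against 136.9 and 82.3 CPM. The groups were well apart, with a log2 difference of -1.93 ± 0.35 (adjusted p = 0.132). Without animal 4 the difference was -1.53 (adjusted p = 0.230), and without any other single library it was called. The other heavy chains of this class were picked after their values were seen. Myh10, common in neurons, stood at 155.7 and 150.7 against 516.4 and 350.8 CPM (-1.50, adjusted p = 0.300). Myh14 stood at 23.8 and 29.9 against 140.3 and 59.0 CPM (-1.89, adjusted p = 0.289). Animal 4 was highest for all 3 heavy chains, and without it the differences were -1.53, -1.21 and -1.15. Dbn1, drebrin, which binds actin in dendritic spines, stood at 17.1 and 20.5 against 63.3 and 56.5 CPM. The uncrushed libraries of Dbn1 were close to each other, and its log2 difference was -1.67 ± 0.32 (adjusted p = 0.174).

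The 4 most abundant genes of the list showed smaller differences or none. Sptbn1, the beta chain of the membrane spectrin skeleton and the most abundant member, stood at 810.2 and 671.6 CPM after crush against 746.0 and 678.0 CPM, which overlap. Myo5a, a motor that carries vesicles along actin, stood at 262.6 and 301.5 CPM after crush against 613.7 and 598.9 CPM (-1.10, adjusted p = 0.563). Sptan1, the alpha spectrin chain, stood at 277.1 and 241.3 against 566.0 and 509.4 CPM (-1.05, adjusted p = 0.563). For Myo5a and Sptan1 the groups did not overlap. Actb, beta-actin, stood at 187.8 and 342.5 against 481.4 and 400.9 CPM. Skeletal muscle genes, whose sum was high in 1 library of each group as given above, had a median of 0.92 over 16 members, 11 of them above 0. Without animal 51 the median was -0.45, with 10 members below 0 and 6 above. Without animals 58, 4 and 6 it was 1.55, 1.94 and 0.45. With all 4 libraries, 5 members were higher and 2 lower at an unadjusted p below 0.05, with differences from -4.76 to 4.08. In the Cre comparison the median of the 10 members tested was -3.52. The part of muscle genes in these results was not tested. Outside the list, 2 genes picked after their values were seen had similar differences. Mid1, a ubiquitin ligase on microtubules, stood at 51.8 and 82.1 CPM after crush against 412.1 and 214.0 CPM (-2.22, adjusted p = 0.132). Tax1bp1, an autophagy receptor, stood at 122.0 and 74.1 against 362.1 and 303.3 CPM (-1.76, adjusted p = 0.174).

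Mitochondrial transcripts took a large and variable share of these precipitates. The 2 mitochondrial rRNAs took 11.47% and 39.91% of counts in crushed animals 51 and 58, and 48.21% and 32.7% in uncrushed animals 4 and 6. The means, 25.69 ± 20.11% and 40.46 ± 10.97% (SD, n = 2), gave a difference of -14.8 percentage points, within the spread of the crushed pair. Without animal 51 it was -0.545 points. In CPM both rRNAs lay lower in both crushed libraries, with log2 differences of -1.55 and -1.38 that did not pass the adjusted threshold. Their median was -0.7 without animal 51. The 13 mitochondrially encoded protein genes, all subunits of the respiratory chain and ATP synthase, took 10.14% and 7.14% of counts after crush against 11.61% and 15.19% without. Their shares of TPM, values scaled by transcript length, were 20.55% and 11.69% after crush against 16.41% and 23.12%, which overlap. Of the counts that remained after leaving out mitochondrial rRNA, they took 11.45% and 11.88% after crush against 22.42% and 22.57%. On this scale the libraries of each group were nearly equal and the groups were far apart. Other classes also separated the groups on it. Nuclear protein-coding genes took 71.78% and 68.8% after crush against 49.62% and 53.22%. Long intergenic non-coding RNAs took 12.75% and 15.79% against 23.29% and 20.83%. In the libraries with Cre the same 13 genes took 0.6499% and 1.036% of all counts after crush against 3.117% and 1.654% without.

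**Figure D3:**
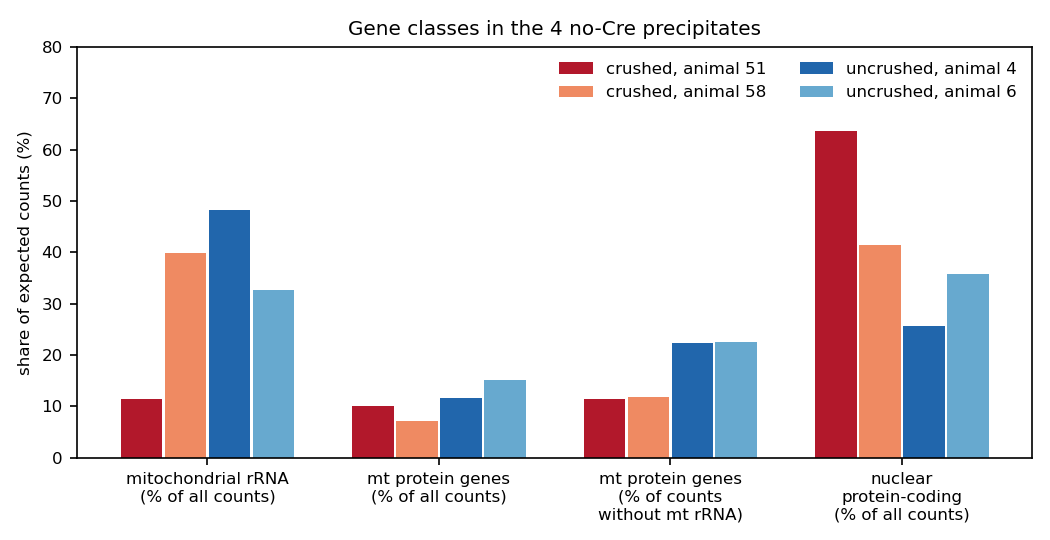
Bars give the share of expected counts (percent) held by 3 gene classes in each of the 4 libraries, with the mitochondrially encoded protein genes shown both out of all counts and out of counts without mitochondrial rRNA. Mitochondrial rRNA ranges from 11.47% to 48.21%. Of the shares shown, only that of mitochondrially encoded protein genes without mitochondrial rRNA separates the groups closely (11.45% and 11.88% against 22.42% and 22.57%).

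Gene by gene, all 13 mitochondrially encoded protein genes lay lower in both crushed libraries, beside 18.6% of all genes, with log2 differences from -1.96 to -1.06 and a median of -1.52. None passed the adjusted threshold and all 13 had an unadjusted p below 0.05, beside 3.77% of all genes, and DESeq2 called 12 of them lower. The median was -1.57, -1.62, -1.54 and -1.55 without animals 51, 58, 4 and 6, and -0.60 when scaled by library size alone, where all genes had a median of 0.93. The 13 genes are cut from shared precursor transcripts and are not independent of each other. mt-Nd5, a subunit of complex I, stood at 14509.8 and 13092.7 CPM after crush against 41699.8 and 37567.5 CPM (-1.52 ± 0.40, adjusted p = 0.538). mt-Nd2, another complex I subunit, stood at 10025.1 and 10030.0 against 29193.9 and 42869.8 CPM (-1.85 ± 0.41, adjusted p = 0.348). mt-Co1, the catalytic subunit of cytochrome oxidase, stood at 7922.8 and 9531.0 against 25230.2 and 16591.5 CPM (-1.26 ± 0.40, adjusted p = 0.598). For each of them the crushed libraries lay close together at less than the lower uncrushed value. mt-Nd4, of complex I as well, stood at 7723.3 and 10036.8 against 33072.5 and 25708.7 CPM (-1.73 ± 0.41, adjusted p = 0.390). In the Cre comparison the median of the 13 genes was -2.34, and 6 of them were called lower, beside 0.558% of all genes there.

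Among nuclear genes of mitochondria and ribosomes, more members also lay lower than higher, by smaller differences. Of 30 nuclear genes of oxidative phosphorylation, 12 were lower and 2 higher without overlap, beside 18.6% and 20.6% of all genes. The median was -0.45. It was -0.08 without animal 51 and -0.84 without animal 58, so its size rested on which crushed library was used. Cox5a, a subunit of cytochrome oxidase chosen here after its values were seen, stood at 19.9 and 60.6 CPM after crush against 119.3 and 78.0 CPM. Atp5b, the catalytic subunit of ATP synthase, stood the other way, at 287.1 and 228.8 against 136.6 and 216.1 CPM. Of 78 cytosolic ribosomal protein genes, 30 were lower and 1 higher without overlap, 68 had a difference below 0, and the median was -0.38. It was -0.08 without animal 51 and -0.86 without animal 58. Scaled by library size alone, the medians of these lists were 0.43 and 0.49, against 0.93 for all genes. Ribosomal protein transcripts are short, and differences varied with length. Of 5 equal classes of all genes tested, the shortest transcripts had a median crush difference of -0.19 and the longest 0.09. In animal 51 the shortest class deviated by -0.19 from the mean of the libraries and the longest by 0.14, and the part of length in the results was not tested. Translation factors had a median of -0.20, with 5 of 28 lower and 3 higher without overlap. It was 0.05 without animal 51 and -0.46 without animal 58. Splicing factors and SR proteins lay near all genes, with 7 of 30 higher, 2 lower and a median of 0.04. For 26 proteasome genes the median was -0.23, and it was -0.01 without animal 51 and -0.47 without animal 58. For 22 chaperones of the endoplasmic reticulum the median was -0.03, and for 21 genes of cholesterol synthesis -0.06.

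Among neuronal genes, more lay lower than higher after crush when all 4 libraries were used. In whole tissue, fewer cells of a type and less RNA per cell cannot be told apart, and here the amount of a transcript that sticks to the beads adds to both. Of 22 genes of synaptic vesicles and transmitter release, 18 were lower without overlap and 0 higher, beside 18.6% and 20.6% of all genes. A difference below 0 was seen in 21, and the median was -0.40 (0.55 when scaled by library size alone, against 0.93 for all genes). None passed the adjusted threshold, 4 had an unadjusted p below 0.05, all lower, and DESeq2 called 1. Syp, synaptophysin of the vesicle membrane, stood at 231.1 and 326.4 CPM after crush against 463.1 and 514.6 CPM. Snap25, a protein of the fusion complex, stood at 1954.7 and 2798.9 against 2985.2 and 3656.9 CPM. For Vamp1, its partner on the vesicle, the levels were 156.9 and 309.8 against 412.1 and 332.9 CPM. In all 3 genes crushed animal 51 was lowest. The median of the list was -0.25 without animal 51 and -0.60 without animal 58.

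Of 17 pan-neuronal genes, 7 were lower and 0 higher without overlap, beside 18.6% and 20.6% of all genes, with a median of -0.26. Of 18 interneuron genes tested of 21 listed, 7 were lower and 0 higher, with a median of -0.36. Of 22 motor neuron genes tested of 25, 8 were lower and 2 higher, with a median of -0.34. Scaled by library size alone, the 3 medians were 0.64, 0.54 and 0.62. These medians moved with single libraries: without animal 51 the medians were -0.06, -0.15 and -0.19, with 9 of 17 pan-neuronal genes below 0, and without animal 58 they were -0.65, -0.84 and -0.55. Without animal 6 the pan-neuronal median was -0.15. Map2, a protein of dendritic microtubules, stood at 368.4 and 408.7 CPM after crush against 384.1 and 407.9 CPM, which overlap. Among the motor neuron genes, Nefm, the medium chain of the neurofilament, stood at 923.9 and 1320.3 CPM after crush against 3883.4 and 1949.7 CPM (-1.38, adjusted p = 0.563). Nefh, the heavy chain, stood at 349.3 and 556.4 against 1259.7 and 741.5 CPM (-1.14, adjusted p = 0.603). Animal 4 was highest for both chains, and without it the differences were -0.81 and -0.72. Slc5a7, the choline transporter of cholinergic endings, stood at 21.4 and 32.9 against 26.7 and 24.4 CPM, which overlap. Prph, the filament peripherin, stood at 15.5 and 45.9 against 71.6 and 47.5 CPM (-0.96 ± 0.45, adjusted p = 0.658), and at -0.37 without animal 51. Sensory ganglion genes were lowest in animal 51. Their 11 members summed to 18.6 CPM there, and to 82.8, 83.0 and 71.6 CPM in animals 58, 4 and 6. The 7 members tested all lay below 0, with a median of -0.77. Without animal 51 the median was 0.23 over 11 members, and without animals 58, 4 and 6 it was -4.25, -0.89 and -0.42. Scn10a, a sodium channel of pain fibres, stood at 0.12 CPM in animal 51, 9.91 CPM in animal 58, and 6.66 and 10.2 CPM in the uncrushed libraries.

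Markers of microglia, astrocytes and vessels had medians slightly above 0 after crush, with no gene past the adjusted threshold. Of 19 microglial and macrophage genes tested of 21, 5 were higher and 1 lower without overlap, beside 20.6% and 18.6% of all genes, and the median was 0.35. It was 0.10 without animal 51, with 11 members above 0 and 9 below, and 0.26, 0.34 and 0.21 without animals 58, 4 and 6. Cx3cr1, the fractalkine receptor of microglia, stood at 40.8 and 61.0 CPM after crush against 16.7 and 23.7 CPM (1.32 ± 0.36, adjusted p = 0.557). Aif1, which encodes Iba1, stood at 1.68 and 5.52 against 2.67 and 2.26 CPM. Only the first of these separates the groups. Of 17 endothelial and pericyte genes, 9 were higher and 1 lower without overlap, with a median of 0.34, or 0.15 without animal 6. Of 15 astrocyte genes, 7 were higher and 5 lower, with a median of 0.31, or 0.18 without animal 4. Gfap, the astrocytic filament that rises in reactive astrocytes, stood at 173.4 and 176.7 CPM after crush against 155.3 and 158.7 CPM (0.16 ± 0.29, adjusted p = 0.912). The groups did not overlap, but the difference was small beside its error. Of 18 oligodendrocyte genes, 4 were higher and 3 lower, with a median of 0.03. Mbp, myelin basic protein, stood at 1272.8 and 1814.6 against 2999.5 and 2246.9 CPM (-0.76 ± 0.36, adjusted p = 0.654), and its difference was 0.16 when scaled by library size alone, where all genes had a median of 0.93. Of 19 genes of the glial reaction to injury tested of 30, 7 were higher and 1 lower without overlap, with a median of 0.16.

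**Figure D4:**
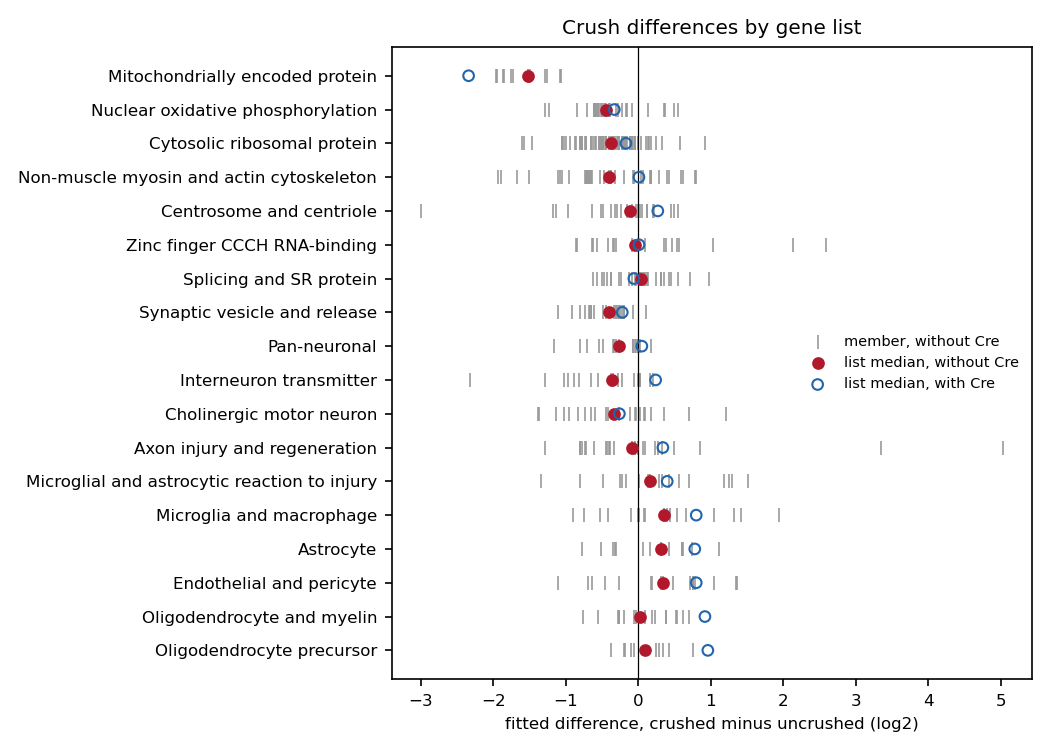
For 18 gene lists, grey ticks mark the fitted log2 difference (crushed minus uncrushed) of each member tested without Cre, the filled circle their median, and the open circle the median of the list with Cre. Among the 18 lists shown, the mitochondrially encoded protein genes have the lowest median in both comparisons (-1.52 and -2.34). Lists not shown lay lower: the 11 predicted genes without Cre (-2.33) and the skeletal muscle genes with Cre (-3.52). The lists of glial and endothelial markers have medians of 0.03 to 0.35 without Cre against 0.78 to 0.96 with Cre, and the list of the glial reaction to injury 0.16 against 0.4.

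Injury genes of neurons were detectable in the background after crush at low counts. Sprr1a, a proline-rich protein made by neurons that regrow an axon, had 142 counts over the crushed group and 2 over the uncrushed group. Its level was 5.40 and 13.7 CPM in animals 51 and 58 against 0.333 and 0.226 CPM in animals 4 and 6. The ratio in CPM was 34.3 (95% interval 9.31 to 286 from counting error alone), and the fitted log2 difference was 5.03 ± 0.92 (adjusted p = 0.146). In the Cre libraries Sprr1a stood at 223.1 and 157.3 CPM after crush. Atf3, a transcription factor of injured neurons, had 43 counts against 2, a ratio of 10.4 (interval 2.7 to 88.4, adjusted p = 0.617), and stood at 2.04 and 3.68 CPM after crush against 0 and 0.452 CPM. With Cre it stood at 59.4 and 42.3 CPM after crush. Both genes were higher in each crushed library than in either uncrushed one, and both passed the filter on low counts through the crushed group alone. Sensory ganglion genes summed to 18.6 CPM in animal 51 and 82.8 CPM in animal 58, and their part in these levels was not tested. The injury list as a whole did not follow. Of 27 genes tested of 40, Sprr1a among them, 5 were higher and 8 lower without overlap, beside 20.6% and 18.6% of all genes. The median was -0.09, or -0.42 without animal 58. Stmn4, a regulator of microtubule growth, stood at 59.1 and 103.1 CPM after crush against 174.2 and 108.0 CPM. Lifr, the receptor of leukaemia inhibitory factor, stood at 84.8 and 108.7 against 125.9 and 129.0 CPM, Il6st, its signalling partner, at 97.1 and 97.0 against 92.3 and 103.5 CPM, and Klf7, a transcription factor of axon growth, at 71.3 and 68.0 against 65.0 and 65.1 CPM.

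The same comparison was set beside that in the Cre libraries, which are other animals. With Cre, 49 of 13808 genes rose (0.355%) and 77 fell (0.558%). Across the 12563 genes tested in both, the differences had a Pearson r of 0.344 and a Spearman rho of 0.365, and 63.8% had the same sign. The points share transcript length and base composition, and in both comparisons the crushed mice were older. In both, the titles of the uncrushed libraries also share the same number, which the crushed titles lack. Of 113 genes called with Cre and tested without, 98 had the same sign without Cre, 35 of the 42 higher and 63 of the 71 lower ones. Their median without Cre was 0.41 for the higher and -0.63 for the lower ones. None of the 4 leading genes of the background was called with Cre. Cep350 stood at 92.1 and 96.9 CPM after crush with Cre against 135.1 and 129.4 CPM (-0.48 ± 0.13, adjusted p = 0.108). Zc3h10 stood at 9.71 and 6.27 against 6.71 and 9.41 CPM (-0.01 ± 0.33), Myh9 at 29.5 and 28.7 against 40.1 and 29.7 CPM (-0.26 ± 0.19), and Dbn1 at 42.9 and 45.1 against 45.3 and 40.7 CPM (0.03 ± 0.15). With Cre the groups overlap for Zc3h10 and Dbn1 and do not for Cep350 and Myh9.

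The difference between the crush effects was tested as an interaction over all 8 libraries. Of 15208 genes, 0 passed the adjusted threshold in edgeR's quasi-likelihood test and 905 had an unadjusted p below 0.05 (5.95%). DESeq2 called 14 and limma voom 0. The smallest adjusted p was 0.386, for Npy, a neuropeptide induced in injured sensory neurons, which was picked for that p after its values were seen. Npy stood at 0.841 and 1.84 CPM after crush against 3.66 and 2.94 CPM without Cre, and at 18.1 and 8.98 against 0.458 and 0.453 CPM with Cre. The interaction was 6.17 on the log2 scale (Cre minus no Cre, unadjusted p = 2.54e-05). For Cep350 the interaction was 2.55 (unadjusted p = 1e-04, adjusted p = 0.432), for Zc3h10 -2.58 (adjusted p = 0.706), for Myh9 1.70 (adjusted p = 0.770) and for Dbn1 1.73 (adjusted p = 0.491). None of the 4 genes was therefore shown to respond differently with and without Cre.

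**Figure D5:**
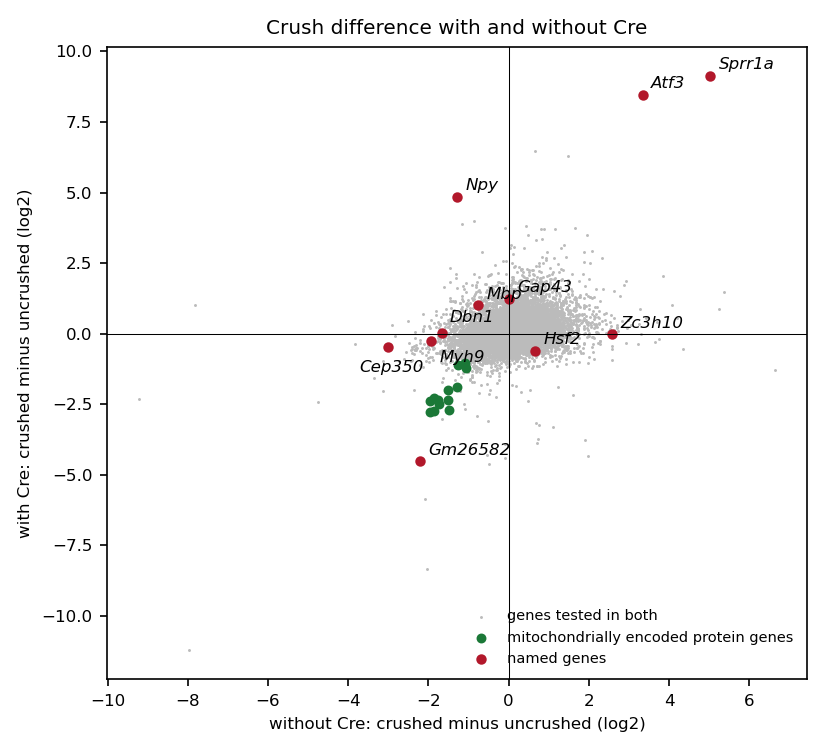
Each point is 1 of the 12563 genes tested in both comparisons, placed by its log2 difference (crushed minus uncrushed) without Cre (horizontal axis) and with Cre (vertical axis). Sprr1a and Atf3 are high on both axes, the mitochondrially encoded protein genes are low on both, and Cep350, Myh9, Dbn1 and Zc3h10 lie further from 0 on the horizontal than on the vertical axis, a difference that passed no adjusted threshold.

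Cep350 and Myh9 lay lower in both crushed libraries in either comparison. Further genes with the same direction in both were picked after their values were seen. Gm26582, a long non-coding RNA, stood at 10.1 and 18.0 CPM after crush against 60.6 and 68.7 CPM without Cre (-2.21, adjusted p = 0.132), and it fell with Cre (-4.52, adjusted p = 6.78e-04). Gm10052 had 0 counts in all crushed libraries of both kinds, and stood at 41.2 and 19.0 CPM in the uncrushed libraries with Cre. Zcchc7, a zinc knuckle protein of nuclear RNA surveillance, stood at 187.6 and 94.6 CPM after crush against 47.6 and 53.6 CPM without Cre (1.48, adjusted p = 0.456), and it rose with Cre (1.42, adjusted p = 0.0414). The glial lists differed in their medians between the comparisons: with Cre the median was 0.92 for oligodendrocyte, 0.96 for precursor, 0.78 for astrocyte, 0.80 for microglial and 0.80 for endothelial genes, with 2, 1, 2, 0 and 0 members called higher. No test over a list was made. For Mbp, the interaction was 1.80 (unadjusted p = 0.00179, adjusted p = 0.806).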

How the data were processed

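The authors deposited 1 gene table per library, made with Bowtie2 2.2.0 and RSEM 1.2.12, per the submitters' processing notes. Genome build, annotation and strand setting: not given in the sources used here. Coordinates are therefore left out, and reads of antisense partners cannot be told apart. The deposited values used were expected counts, which RSEM estimates per gene and which were rounded to whole numbers, and TPM, the authors' length-scaled values, used only for shares. Deposited transcript lengths, in bases and of the type other, were used for length classes. Symbols were matched for 37607 of 38924 gene identifiers (96.6%).

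Counts of the 4 libraries were filtered by filterByExpr (minimum count 10, minimum total 15), scaled by TMM and tested with edgeR 4.0.16 (glmQLFit, glmQLFTest, 2 residual degrees of freedom, two-sided, Benjamini-Hochberg) in R 4.3.3. For log2 differences the ± value is an approximate standard error, and for levels the SD. The Cre libraries were fitted separately, and the interaction over all 8. Replicates are separate animals by their numbers in the titles. Alternatives used DESeq2 1.42.0 and limma 3.58.1. Levels of few counts have exact Clopper-Pearson intervals (95%) that cover counting error only, as do limits from 3 counts.

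Genes were named by these rules: the 5 leading genes of earlier results (Cep350, Zc3h10, Myh9, Dbn1, Hsf2), 9 check genes, called genes with the smallest p, the 10 most abundant genes, and up to 4 members of each list, called ones first and then by mean CPM. The members, the 34 lists and the 3 added ones were chosen with earlier results of these data known. Not every gene named by the rules is printed, and genes outside them are marked as picked after their values were seen.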

Additional observations from a re-analysis of the deposited data

How the results depend on the processing

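The number of genes called after crush without Cre was 2, and 2 with DESeq2's size factors in edgeR and 3 with a stricter filter. It was 96 when scaled by library size alone, 1 with mitochondrially encoded genes left out, 121 with no filter on low counts, 63 with DESeq2's Wald test and 11 with all 8 libraries in the fit, and 31 to 128 with single libraries left out. The causes were not tested. The interaction count of 0 became 87 with no filter and 14 with DESeq2, and stayed at 0 to 0 with single libraries left out. The share of mitochondrial rRNA differed by -14.8 percentage points, by -10.4 in shares of TPM, and by -29 to -0.545 with single libraries left out. That of mitochondrially encoded protein genes differed by -4.76 points, by -10.8 without mitochondrial rRNA in the total, and by -6.55 to -2.97 with single libraries left out. In shares of TPM it differed by -3.64 points, and the groups overlapped. Scaling by library size alone turned the difference of Mbp to 0.16 and of Malat1 to 0.23. Of the 39 named genes followed through the alternatives, no other changed direction. No paired analysis was possible because each animal number belongs to 1 group only. Depth, with 3 counts at up to 0.999 CPM, limits genes below about that level.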

Other observations

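Non-coding and abundant transcripts not described above were also compared. Malat1, a nuclear long non-coding RNA, stood at 25763 and 29534 CPM after crush against 58336 and 35386 CPM (log2 -0.76, adjusted p = 0.697, and 0.23 when scaled by library size alone). The library with the highest value was again uncrushed animal 4, and the difference was -0.37 without it. Gm42418, a predicted gene among the 3 most abundant over the libraries, took 2.378% and 3.681% of counts after crush against 5.758% and 4.85% (log2 -1.67, adjusted p = 0.586). Gm26905, a predicted non-coding RNA, stood at 7804.6 and 7094.4 CPM after crush against 16698.2 and 14679.3 CPM. Gm26870, another one, was high only in uncrushed animal 6, with 42330.5 CPM, against 5920.5 and 2838.3 CPM in crushed animals 51 and 58 and 3758.4 CPM in uncrushed animal 4. By annotation class, the 12269 protein-coding genes had a median difference of 0.00, the 249 long intergenic non-coding RNAs -0.23 and the 156 processed pseudogenes -0.38. Of the remaining lists, the median was 0.09 for 10 oligodendrocyte precursor genes, 0.12 for 12 meningeal genes, 0.23 for 5 ependymal genes tested of 10, -0.29 for 10 interferon response genes tested of 16, -0.39 for 5 histone genes tested of 14 and -0.05 for 10 nuclear long non-coding RNAs tested of 11. Some of these medians changed sign without single libraries. Without animal 4 the precursor median was -0.11 and that of the nuclear RNAs 0.26, and without animal 58 the meningeal median was -0.2.

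Blood genes were highest in crushed animal 58, where 18 of them summed to 1338.3 CPM, against 418.1 CPM in crushed animal 51 and 389.1 and 706.5 CPM in uncrushed animals 4 and 6. Among 18 genes listed, 15 were tested, 2 were higher and 1 lower without overlap, and the median was -0.07. It was 0.12, -0.6, -0.01 and 0.47 without animals 51, 58, 4 and 6. Of 11 Schwann cell genes, 3 were higher and 1 lower without overlap, with a median of -0.19. This median was 0.26, -0.66, -0.01 and -0.18 without animals 51, 58, 4 and 6. Immediate early genes, which are switched on within minutes of stimulation, had a median of -0.34 over 17 tested of 24, with 3 higher and 5 lower without overlap. Without animals 51, 58 and 4 the median was -0.14, -0.18 and -0.16, and without animal 6 it was 0.26. Jun, the most abundant of them, stood at 14.4 and 21.0 against 28.3 and 18.3 CPM. In each of these groups no member passed the adjusted threshold.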
